A study of Homo sapiens with 3 samples.

Results

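The genes described here encode the eukaryotic translation initiation factors (eIFs) of Jurkat cells, an established human T-lineage leukaemia line, together with their closest regulators. They were taken by name, as every row whose symbol begins with EIF1, EIF2, EIF3, EIF4, EIF5 or EIF6, leaving out the EIF2AK kinases and symbols with a hyphen. This gave 61 of the 17329 gene rows, of which 50 are annotated as protein-coding and 11 as pseudogenes. Polyadenylated RNA was sequenced from 3 cultures kept for 48 hours: the oxamate+lactate culture, which received 10 mM L-sodium lactate beside 50 mM sodium oxamate, the oxamate culture, in 50 mM sodium oxamate alone, and the control culture, in medium with neither. Oxamate is an inhibitor of lactate dehydrogenase, and the series asks how lactylation of histone H3, a mark that depends on lactate, bears on transcription. There was 1 library per medium, so no difference has a replicate check, no p-value or standard error was computed, and "higher" and "lower" compare libraries.

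Initiation begins when eIF2 carries the initiator tRNA, as a complex with GTP, to the small ribosomal subunit, where eIF1, eIF1A, eIF3 and eIF5 help to find the start codon. The cap of the mRNA is held by eIF4F, made of the cap-binding protein eIF4E, the scaffold eIF4G and the helicase eIF4A. The 4E-binding proteins (4E-BPs) take eIF4E away from the scaffold when mTORC1, the nutrient-sensing kinase complex, is inactive. The exchange factor eIF2B reloads eIF2 with GTP and is blocked by phosphorylated eIF2 in the integrated stress response.

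The deposited values are normalised counts, rounded to whole numbers, and their depth in reads is unknown. Of the 61 rows, 52 had a mean of at least 50 over the 3 libraries, the floor used for ratios, against 12292 of all genes. The row nearest below the floor was EIF3EP1, with a mean of 47.3. Above it, EIF4A1P10 had a mean of 53.7, and EIF1AY, whose values are not given, also lay just above. The EIF rows together made up 0.962% of the gene total of 8171633 in oxamate+lactate, 0.951% of 8821115 in oxamate and 0.978% of 8220199 in control. Ratios are log2((value + 1)/(value + 1)). Rows are counted as higher or lower past a first threshold, a ratio of 0.32 on the log2 scale in either direction, and past 1.5-fold. The 18 ERCC spike-in RNAs with a mean of at least 100, added after RNA extraction, had ratios with an SD of 0.13 for oxamate against control, 0.11 for oxamate+lactate against oxamate and 0.19 for oxamate+lactate against control. That spread does not include the difference between cultures. The median ratios of the 18 were 0.0, -0.08 and -0.08 in the same order. Of 10 T-lineage markers 9 were over the floor, among them CD3E at 4011 in oxamate+lactate, 4128 in oxamate and 4488 in control. The exception was CD28, with 20 in oxamate+lactate, 66 in oxamate and 3 in control. In oxamate against control, CD3D, CD247, LCK and ZAP70 were higher past the first threshold, with ratios of 0.33 to 0.51. They make 44.4% of the 9, against 23.1% of all genes. None of the 9 was lower past it, against 11.8% of all genes. Among markers of other blood cells, CD79A had 71 in oxamate+lactate, 62 in oxamate and 76 in control.

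Sequence at the annotated start separates some of these genes from the rest and is shown first. Messages of many ribosomal proteins and translation factors begin with a 5' terminal oligopyrimidine (TOP) tract, through which mTORC1 controls their translation. The values below are of RNA and do not measure translation. A TOP-type start was taken as C at the annotated RefSeq start (GRCh38.p14) followed by at least 4 pyrimidines. Of the 61 genes, 41 had an entry in the RefSeq table, and 9 of the 41 had such a start in at least 1 of their entries (9 of 56 entries, 16.1%), against 4.07% of all 35116 entries in the table. The first 20 bases of the 9 are given 5' to 3', with the leading run of pyrimidines in capitals.
EIF2S3 (chrX:24054956-24054975, plus strand): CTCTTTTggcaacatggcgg
EIF2A (chr3:150546787-150546806, plus strand): CTCTTTCCgggacaacatgg
EIF2D (chr1:206612446-206612465, minus strand): CCTTTTCgcggccgggcccc
EIF3D (chr22:36529147-36529166, minus strand): CTCTTTTCCTggtttctcaa
EIF3F (chr11:7987337-7987356, plus strand): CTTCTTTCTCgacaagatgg
EIF3K (chr19:38619188-38619207, plus strand): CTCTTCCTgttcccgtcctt
EIF3M (chr11:32583831-32583850, plus strand): CTTTTCCggtcggcgtggtc
EIF4A2 (chr3:186783577-186783596, plus strand): CTTTTCagtcgggcgctgag
EIF4B (chr12:53006456-53006475, plus strand): CTTTTgcgttctctttccct
For contrast, EIF1 and EIF4EBP2, which lay on opposite sides of control in oxamate, have G at the annotated start. They therefore do not meet the definition, though in EIF4EBP2 a C followed by 4 pyrimidines begins at the next base.
EIF1 (chr17:41688885-41688904, plus strand): gccccagtcactgagccgcc
EIF4EBP2 (chr10:70404145-70404164, plus strand): gcttccggtcgtcgtcgtcg

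In oxamate, the EIF genes as a whole stayed close to control, and single subunits moved in both directions. The scaffold gene EIF4G1 was higher, and the 4E-BP1 gene EIF4EBP1, the start-codon fidelity factor EIF1, the eIF2 beta subunit EIF2S2 and the cap-binding relative EIF4E3 were lower. The median ratio over the 52 rows was 0.05, against 0.08 over all genes. Past the first threshold, 7 rows were higher (background 23.1% of all genes) and 10 were lower (background 11.8%). At 1.5-fold, 1 was higher (background 7.48%) and 5 were lower (background 3.98%), the fifth being EIF3CL. The 10 lower rows include the near-identical EIF3C and EIF3CL and the pseudogene EIF4BP3. Leaving out pseudogene rows, EIF3C, EIF3CL and EIF5AL1, a choice made after seeing the data, kept 46 genes. Of these, 7 (15.2%) were higher past the first threshold and 7 (15.2%) lower, with a median of 0.08. When the all-gene median was set to 0, 5 of the 52 rows were higher past the first threshold and 13 lower. With columns scaled to equal totals, which moved the median of all genes by -0.10, 4 were higher and 13 lower. In bulk RNA, fewer cells of a kind and less RNA per cell cannot be told apart.

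**Figure D1:**
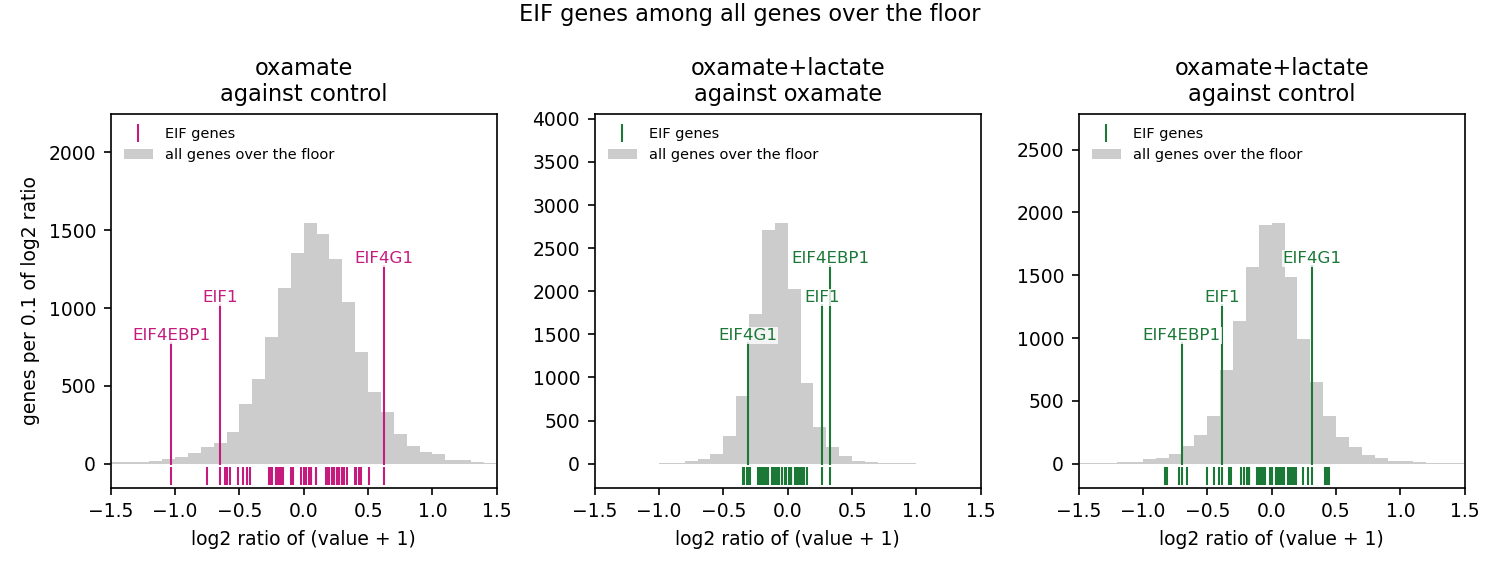
Each panel shows the log2 ratio of 2 libraries on the horizontal axis and the number of genes per 0.1 of ratio on the vertical axis, in grey for the 12292 genes over the floor, with ticks below for the EIF genes other than EIF1AY. In oxamate against control EIF4EBP1 lies at -1.03, EIF1 at -0.65 and EIF4G1 at 0.63, on either side of the main body of genes.

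Among the eIF4F genes, EIF4G1 stood out. EIF4G1, which bridges the cap-binding protein, the helicase and eIF3, had 5039 normalised counts in oxamate+lactate, 6243 in oxamate and 4047 in control. It was 1.54-fold higher in oxamate than in control (log2 ratio 0.63), and 6.31% of all genes had a higher ratio. With lactate added it was lower than in oxamate alone (-0.31) and above control (0.32). With columns scaled to equal totals, or with the all-gene median set to 0, EIF4G1 no longer reached 1.5-fold in oxamate. With columns scaled to equal totals or equal ERCC sums, or with that median at 0, it passed the first threshold in oxamate+lactate against control.

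The other scaffolds were higher in oxamate by less than the first threshold. EIF4G3, a paralog of EIF4G1, had 751 in oxamate+lactate, 809 in oxamate and 658 in control (0.30 for oxamate against control). EIF4G2, which encodes DAP5, a relative that lacks the eIF4E-binding part, had 8970 in oxamate+lactate, 10005 in oxamate and 8579 in control (0.22). All 3 scaffold genes were highest in oxamate and lowest in control.

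Both helicase genes were higher past the first threshold in oxamate than in control. EIF4A2 had 2493 in oxamate+lactate, 2903 in oxamate and 2205 in control (0.40), a call lost with columns scaled to equal totals or the all-gene median set to 0. EIF4A1 had 175 in oxamate+lactate, 173 in oxamate and 128 in control (0.43), and thus lay above control in both treated libraries. The processed transcript AC016876.2 covers 41.1% and transcripts of the read-through gene SENP3-EIF4A1 cover 29.8% of the annotated exon length of EIF4A1, and 23.0% of the 50-base stretches of its principal transcript are also in the pseudogene EIF4A1P10. How such reads were assigned is not stated, and the EIF4A1 value is uncertain. EIF4A1P10 had 57 in oxamate+lactate, 53 in oxamate and 51 in control.

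The cap-binding gene EIF4E had 501 in oxamate+lactate, 582 in oxamate and 482 in control, a ratio of 0.27 for oxamate against control and -0.22 for oxamate+lactate against oxamate. The helicase cofactors lay close to control in oxamate. EIF4B had 5736 in oxamate+lactate, 6396 in oxamate and 6202 in control (0.04 for oxamate against control), and EIF4H had 3986, 4219 and 4174 in the same libraries (0.01). As deposited, all 8 genes of eIF4F and its cofactors were above control in oxamate, with a median of 0.29, as were 7323 of all 12292 genes. EIF4B and EIF4H lay below the median of all genes and turned to the other side of control with columns scaled to equal totals, as the shift of -0.10 exceeds their ratios.

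Of the 4E-BP genes, EIF4EBP1 was lower in oxamate and EIF4EBP2 stayed short of the first threshold. EIF4EBP1 had 233 normalised counts in oxamate+lactate, 185 in oxamate and 379 in control. It was 2.04-fold lower in oxamate than in control (-1.03), the lowest ratio of the 52 rows, and 0.716% of all genes had a lower one. In oxamate+lactate it was 1.26-fold higher than in oxamate (0.33), and still 1.62-fold lower than in control (-0.70). Its call against oxamate was lost with a pseudocount of 10.

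EIF4EBP2, which encodes 4E-BP2, had 2174 in oxamate+lactate, 2477 in oxamate and 1995 in control, 1.24-fold above control in oxamate (0.31), short of the first threshold, and 23.9% of all genes had a higher ratio. No 50-base stretch of the EIF4EBP1 principal transcript occurs in that of EIF4EBP2, so shared reads between the pair were not found. No row bears the symbol EIF4EBP3 alone. The read-through row ANKHD1-EIF4EBP3, outside the rule by its hyphen, had 10 in oxamate+lactate, 16 in oxamate and 14 in control.

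Relatives of eIF4E were unlike each other. EIF4E3, which encodes a cap-binding protein, had 194 in oxamate+lactate, 180 in oxamate and 275 in control. It was 1.52-fold lower in oxamate than in control (-0.61) and lower than control with lactate as well (-0.50). EIF4E2, which encodes 4EHP, a cap-binding repressor of translation, had 424 in oxamate+lactate, 519 in oxamate and 457 in control. EIF4ENIF1 encodes 4E-T, which carries eIF4E into the nucleus and to sites of mRNA decay. It had 296 in oxamate+lactate, 377 in oxamate and 307 in control, and was the only coding gene besides EIF1AY lower past the first threshold in oxamate+lactate than in oxamate (-0.35), a call lost under all 3 other scalings. EIF4A3, the helicase of the exon junction complex rather than of initiation, had 1595 in oxamate+lactate, 1687 in oxamate and 1432 in control (0.24 for oxamate against control).

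**Figure D2:**
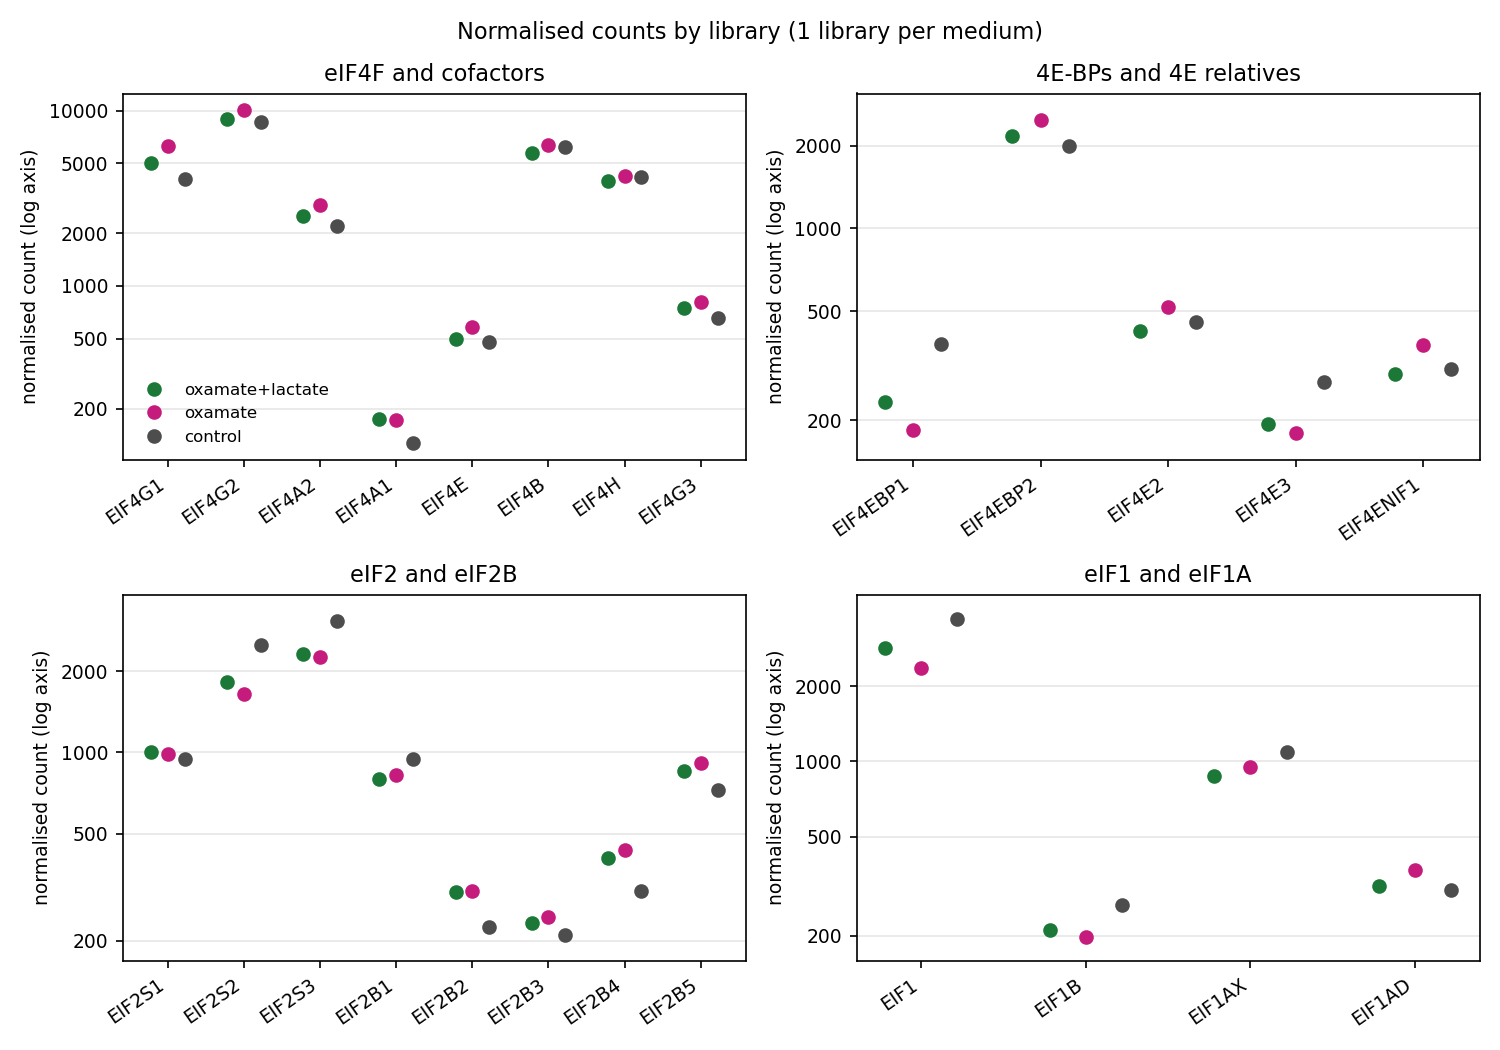
Points give the normalised count of each gene on a log axis, 1 library per medium, for eIF4F and its cofactors, the 4E-BPs and eIF4E relatives, eIF2 and eIF2B, and eIF1 and eIF1A genes. EIF4EBP1 lies at 185 in oxamate against 379 in control while EIF4EBP2 lies at 2477 against 1995, and EIF2S2 and EIF2S3 are highest in control while EIF2B2, EIF2B4 and EIF2B5 are lowest there.

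The eIF2 subunits did not move together. EIF2S2, the beta subunit, had 1833 normalised counts in oxamate+lactate, 1655 in oxamate and 2508 in control, 1.52-fold lower in oxamate than in control (-0.60). EIF2S3, the gamma subunit that binds GTP and the tRNA, had 2313 in oxamate+lactate, 2270 in oxamate and 3080 in control (-0.44). EIF2S1, the alpha subunit phosphorylated in the stress response, had 1005 in oxamate+lactate, 988 in oxamate and 949 in control (0.06). Beta and gamma thus lay below control in both treated libraries by more than the first threshold, and alpha differed by less than the first threshold in every comparison.

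Most eIF2B subunits lay above control in oxamate, the opposite side from EIF2S2 and EIF2S3. The median of the 5 was 0.33, and 3 were higher past the first threshold, as were 23.1% of all genes. EIF2B4, the delta subunit, had 407 in oxamate+lactate, 434 in oxamate and 305 in control (0.51). EIF2B2, the beta subunit, had 303 in oxamate+lactate, 307 in oxamate and 225 in control (0.45), and is overlapped over 20.2% of its exon length by an unclassified transcript. EIF2B5, the catalytic epsilon subunit, had 856 in oxamate+lactate, 912 in oxamate and 724 in control (0.33).

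The other eIF2B subunits lay short of the first threshold against control. EIF2B3, the gamma subunit, had 233 in oxamate+lactate, 246 in oxamate and 211 in control. EIF2B1, the alpha subunit and the lone one below control, had 800 in oxamate+lactate, 827 in oxamate and 944 in control (-0.19). The protein-coding gene DDX55 overlaps 14.8% of the EIF2B1 exon length. EIF2B2 and EIF2B4 were also higher past the first threshold in oxamate+lactate than in control (0.43 and 0.41). EIF2B5 lost its call in oxamate with columns scaled to equal totals or the all-gene median set to 0. Of the factors that can deliver initiator tRNA by other routes, EIF2A had 707 in oxamate+lactate, 697 in oxamate and 748 in control. EIF2D had 627 in oxamate+lactate, 573 in oxamate and 667 in control.

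EIF1, whose protein holds the scanning ribosome open until the right start codon is met, had 2854 normalised counts in oxamate+lactate, 2369 in oxamate and 3726 in control. It was 1.57-fold lower in oxamate than in control (-0.65), with 2.97% of all genes lower still, and 1.31-fold lower than control with lactate (-0.38). Under all 3 other scalings, EIF1 also passed the first threshold in oxamate+lactate against oxamate. Scaled to equal ERCC sums, its ratio for oxamate+lactate against control was -0.32, just short of the threshold.

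Its paralog EIF1B had 212 in oxamate+lactate, 199 in oxamate and 266 in control (-0.42 for oxamate against control), and shares no 50-base stretch with EIF1. EIF1AX, which encodes eIF1A, had 872 in oxamate+lactate, 950 in oxamate and 1095 in control. Its ratio was -0.21 for oxamate against control and -0.33 for oxamate+lactate against control, and under all 3 other scalings neither EIF1AX nor EIF1B kept its call against control in oxamate+lactate. EIF1AD, an eIF1A-domain gene, had 317 in oxamate+lactate, 368 in oxamate and 307 in control. EIF1AY, the Y-linked copy, is counted among the 52 and its values are not given.

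The eIF3 complex, the large scaffold on the small ribosomal subunit, showed small ratios of both signs. Without EIF3C and EIF3CL, the 12 subunit genes ran from -0.27 to 0.41 for oxamate against control, with a median of -0.09. EIF3B, a core subunit, was the lone one past the first threshold, with 3093 in oxamate+lactate, 3619 in oxamate and 2731 in control (0.41), a call lost with columns scaled to equal totals. Thus 8.33% of the 12 were higher and 0 lower past it, against 23.1% and 11.8% of all genes. EIF3A, the largest core subunit, had 4169 in oxamate+lactate, 4680 in oxamate and 3787 in control (0.31). EIF3G had 1691 in oxamate+lactate, 1888 in oxamate and 1650 in control (0.19).

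On the lower side, EIF3E had 2719 in oxamate+lactate, 2555 in oxamate and 3074 in control (-0.27), and EIF3H had 2020, 1912 and 2289 in the same libraries (-0.26). EIF3K had 899 in oxamate+lactate, 863 in oxamate and 1026 in control (-0.25). These 3 were lower past the first threshold with columns scaled to equal totals or the all-gene median set to 0. EIF3M, EIF3I and EIF3D had ratios of -0.21, -0.17 and -0.16 for oxamate against control. EIF3J, EIF3L and EIF3F stayed between -0.02 and 0.10. The transcript AL022311.1 covers 41.1% of the exon length of EIF3L, whose value is therefore uncertain. In oxamate+lactate against control, no subunit but EIF3C and EIF3CL passed the first threshold, and the 12 ran from -0.22 to 0.18. Of all genes, 11.4% were higher and 12.4% lower past it in that comparison.

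EIF3C and EIF3CL, the core subunit gene and its near-identical copy, had lower values in both treated libraries. EIF3C had 252 in oxamate+lactate, 280 in oxamate and 416 in control (-0.57 for oxamate against control), and EIF3CL had 246, 230 and 388 in the same libraries (-0.75). Of the 50-base stretches in the EIF3C principal transcript, 96.8% are also in that of EIF3CL. Most reads of the pair therefore cannot be assigned to a single gene, and these values are uncertain.

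**Figure D3:**
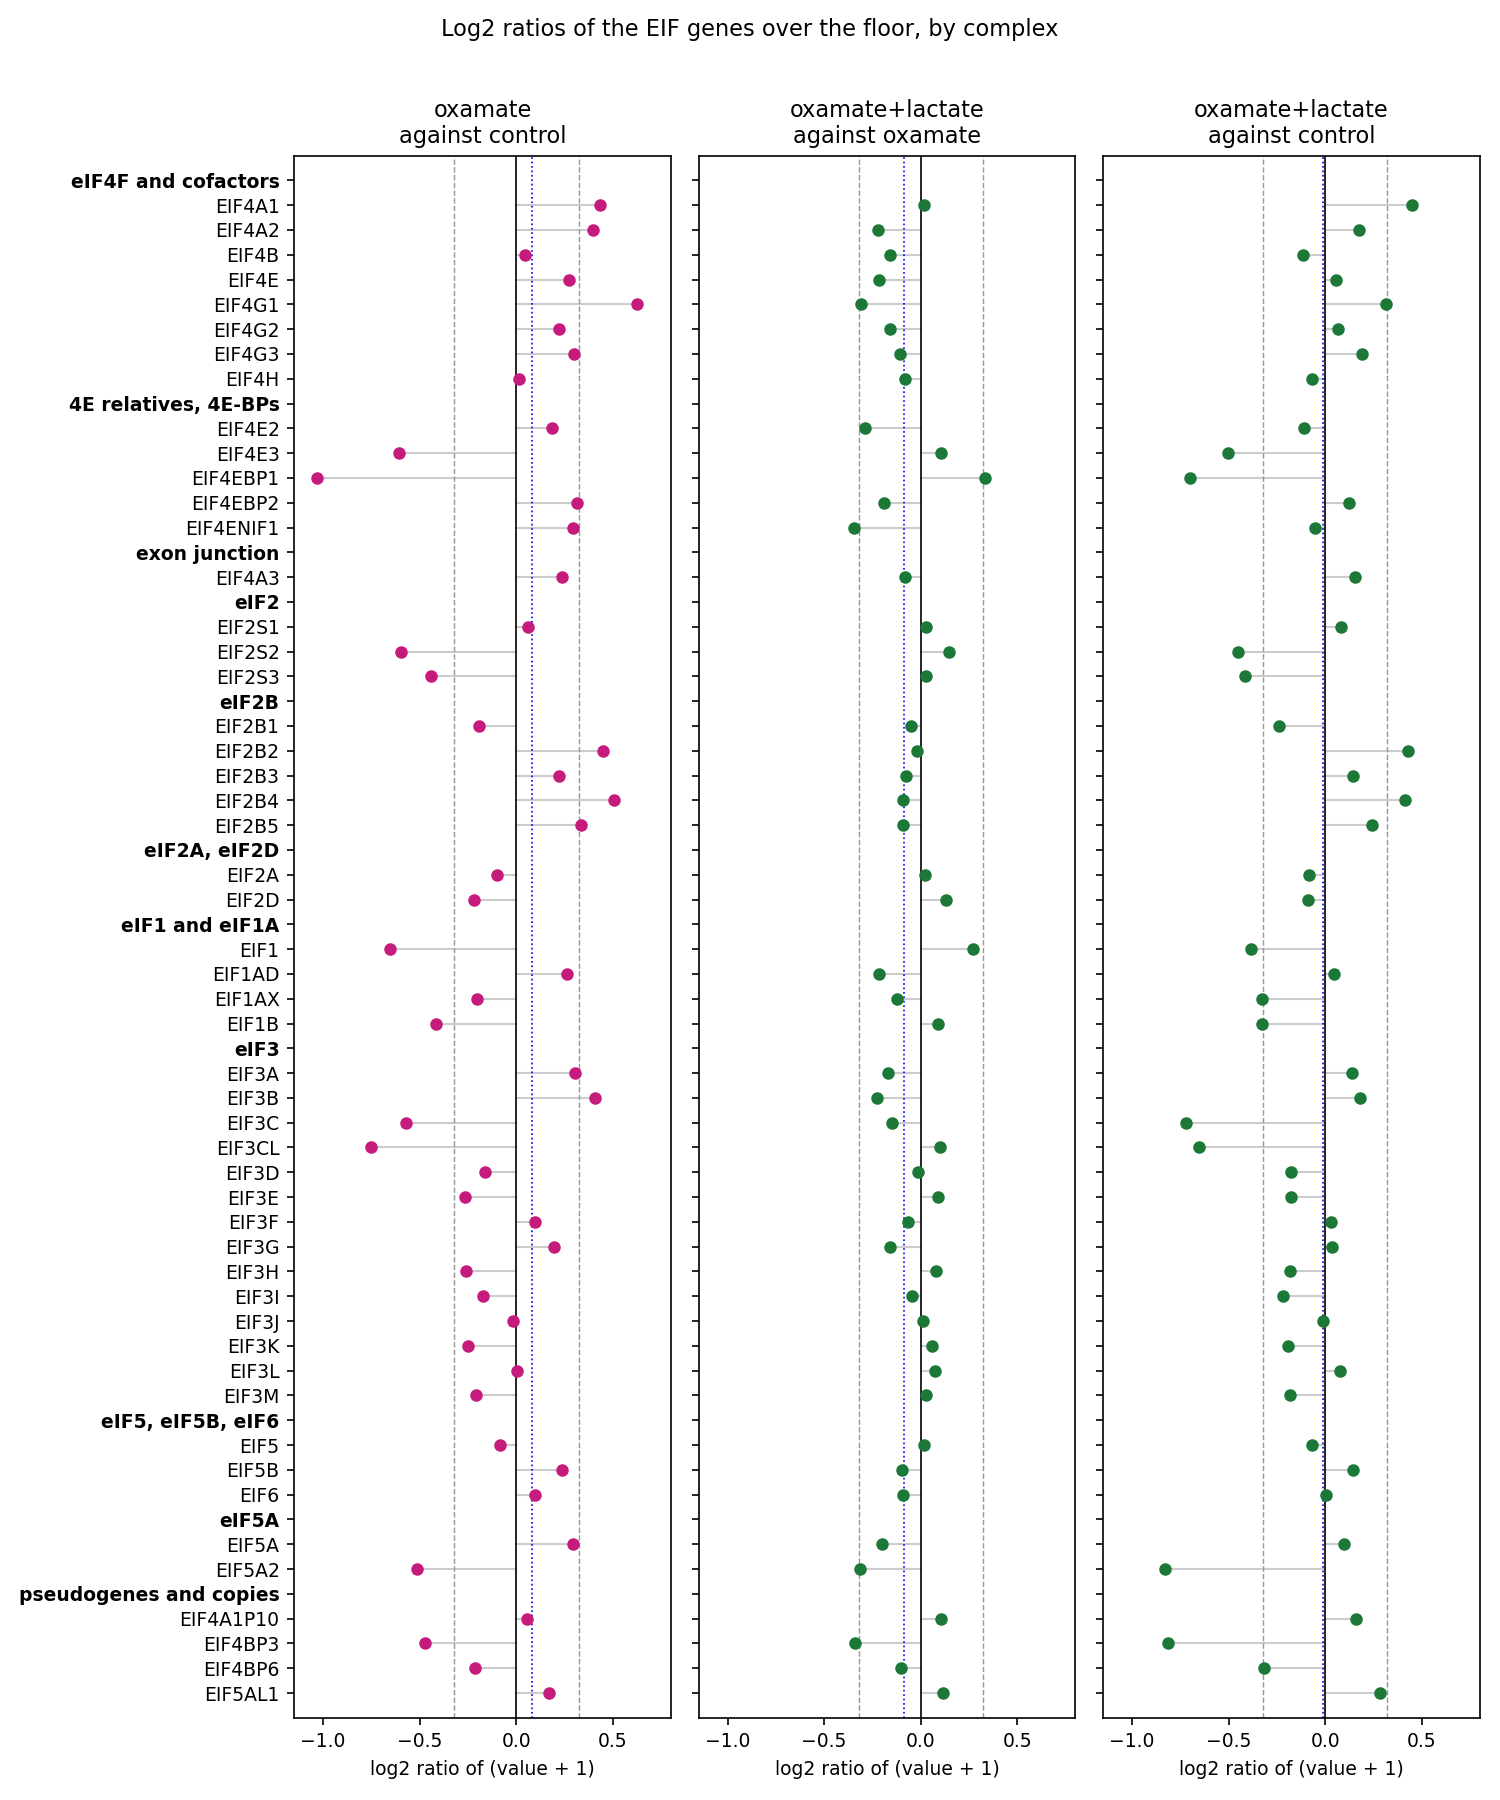
Points give the log2 ratio of each EIF gene over the floor, except EIF1AY, grouped by complex, with 1 panel per comparison. Dashed lines mark the first threshold, 0.32 either side of 0, and the dotted blue line the median of all genes. In oxamate against control the eIF4F and eIF2B genes lie mostly right of 0, EIF2S2, EIF2S3, EIF1 and EIF4EBP1 lie left of it, and most eIF3 genes lie between the dashed lines.

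The factors of the last steps differed little. EIF5, which triggers GTP hydrolysis on eIF2, had 1509 in oxamate+lactate, 1490 in oxamate and 1582 in control. EIF5B, which joins the large subunit, had 1649 in oxamate+lactate, 1761 in oxamate and 1494 in control (0.24 for oxamate against control). EIF6, which keeps the large subunit apart, had 329 in oxamate+lactate, 351 in oxamate and 328 in control.

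The eIF5A genes differed from each other. EIF5A, the factor that carries hypusine, an amino acid derived from spermidine, and helps the ribosome past difficult sequences, had 3667 in oxamate+lactate, 4209 in oxamate and 3434 in control (0.29). Its paralog EIF5A2 had 48 in oxamate+lactate, 60 in oxamate and 86 in control, a ratio of -0.51 for oxamate against control and of -0.83 for oxamate+lactate against control, the lowest of the 52 rows in that comparison. EIF5A2 lies close to the floor. EIF5AL1, an EIF5A-like gene, had 77 in oxamate+lactate, 71 in oxamate and 63 in control.

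Adding lactate to oxamate left most EIF genes short of the first threshold against oxamate alone. The median over the 52 rows was -0.08, against -0.09 over all genes and -0.08 over the 18 ERCC spike-ins. Past the first threshold, 1 row was higher, EIF4EBP1 (background 2.39%), and 3 were lower, EIF4ENIF1, EIF4BP3 and EIF1AY (background 8.80%). None reached 1.5-fold in either direction (background 0.252% higher and 0.903% lower). When the all-gene median was set to 0, EIF4EBP1 and EIF1 were higher and 0 rows were lower.

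Against control, oxamate+lactate had 3 rows higher past the first threshold, EIF4A1, EIF2B2 and EIF2B4 (background 11.4%), and 11 lower (background 12.4%). The 11 were EIF1, EIF1B, EIF1AX, EIF2S2, EIF2S3, EIF3C, EIF3CL, EIF4E3, EIF4EBP1, EIF5A2 and EIF4BP3. At 1.5-fold, 0 were higher (background 2.99%) and 5 were lower (background 3.07%), among them EIF4EBP1 and EIF5A2. The other 3 were EIF3C, EIF3CL and the pseudogene EIF4BP3. The median was -0.06, against -0.01 over all genes. Scaling to equal ERCC sums gave 5 higher and 8 lower. The 3 comparisons share libraries, so their ratios are not independent of each other. Of 51 rows over the floor, leaving out EIF1AY, 5 were highest in oxamate+lactate and 12 lowest there. In oxamate 23 were highest and 15 lowest, and in control 23 were highest and 24 lowest. This order was not counted over all genes. Of all 12292 genes, 7323 lay above control in oxamate. In oxamate+lactate, 3581 lay above oxamate and 5884 above control.

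Genes with a TOP-type start lay lower than the other EIF genes in oxamate against control. The 9 had a median ratio of -0.16, from -0.44 in EIF2S3 to 0.40 in EIF4A2, and 2 of them, EIF4A2 and EIF3F, lay above the median of all genes. The 31 other EIF genes over the floor with a RefSeq entry, leaving out EIF1AY, had a median of 0.22, and 19 of the 31 lay above it. For oxamate+lactate against oxamate the medians were 0.02 and -0.09, and for oxamate+lactate against control -0.11 and 0.06. Over all genes the gap was smaller: 657 genes over the floor with a TOP-type start had a median of 0.03 for oxamate against control, and 7770 without had 0.08. The EIF comparison rests on 9 genes, the ranges of the sets overlap, and the annotated start was not checked against starts used in these cells.

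**Figure D4:**
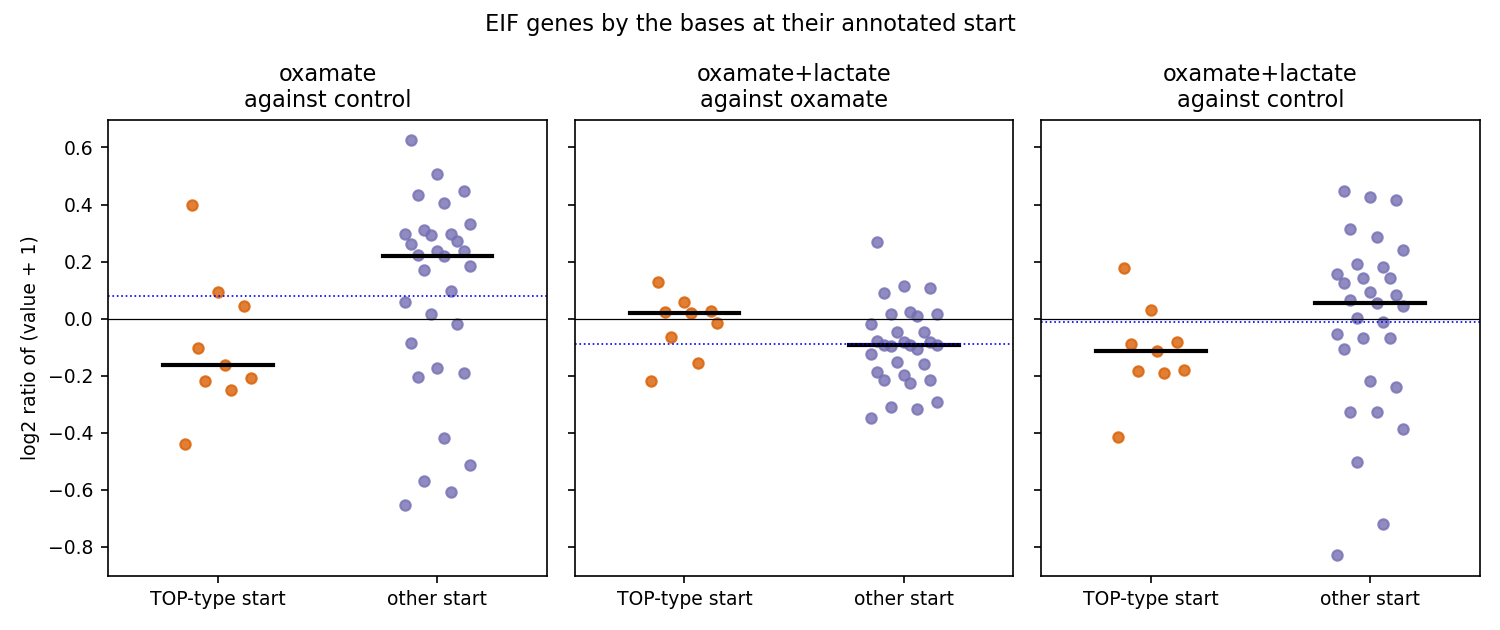
Points give the log2 ratio of each EIF gene over the floor with a RefSeq entry, split into the 9 with a TOP-type start and the 31 others, with 1 panel per comparison. Black bars are medians and the dotted line is the median of all genes. In oxamate against control the TOP-type median is -0.16 and the other median 0.22.

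MYC, a transcription factor that binds the E-box CACGTG and is known to act on EIF4E and other translation genes, was higher in oxamate, with 3922 in oxamate+lactate, 5299 in oxamate and 2739 in control. The letters CACGTG, which read the same on both strands, occur from 250 bases before to 50 after the start in 10 of 41 EIF genes (10 of 56 entries, 17.9%) and in 7.26% of all 35116 entries. By gene, the 10 make 24.4%, against 13.3% of the 8427 genes over the floor with an entry. The 10 are EIF1B, EIF2B3, EIF3F, EIF3K, EIF4A3, EIF4B, EIF4E, EIF4G1, EIF4H and EIF5A2. EIF4G1, EIF4E and EIF5A2 hold it at a pair of places each. The stretches of EIF4G1 and EIF4E are given 5' to 3' with CACGTG in capitals. In EIF4G1 the first letters are at -144 and -67 relative to the start of the first entry, and in EIF4E at -225 and -72. In EIF5A2, whose stretch is not shown, they are at -187 and -162.
EIF4G1 (chr3:184314442-184314564, plus strand): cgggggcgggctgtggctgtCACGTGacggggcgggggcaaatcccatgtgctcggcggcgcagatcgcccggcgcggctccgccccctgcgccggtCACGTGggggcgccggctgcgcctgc
EIF4E (chr4:98929180-98929378, minus strand): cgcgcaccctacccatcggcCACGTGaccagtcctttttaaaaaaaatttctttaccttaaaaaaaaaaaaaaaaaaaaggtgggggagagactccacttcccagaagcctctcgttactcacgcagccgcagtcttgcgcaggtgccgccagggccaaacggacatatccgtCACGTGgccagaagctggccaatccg
The 10 genes with CACGTG had a median of 0.07 for oxamate against control, from -0.51 in EIF5A2 to 0.63 in EIF4G1, and the 30 without, leaving out EIF1AY, had a median of 0.13. Over all genes the order was the other way, with a median of 0.14 for 1119 genes over the floor with CACGTG and of 0.07 for 7308 without. The motif TGATGNAA, part of a site bound by ATF4 with its partners, was looked for on both strands. Among the 41 EIF genes with an entry it was found in EIF4E3, at -13 from the start of 1 of its entries, and in no other, against 3.62% of all entries. The 20 EIF genes without an entry, EIF4EBP1 and EIF2S2 among them, were not searched for any of these letters.

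Base composition moved with the ratios for oxamate against control. The 46 coding EIF genes over the floor other than EIF3C, EIF3CL and EIF5AL1 were compared. The 7 higher past the first threshold in oxamate had a median GC content of 52.5% in the principal transcript. The 7 lower had 42.8% and the 32 between had 47.0%. EIF4EBP1, with the lowest ratio, has 65.5%. The Spearman correlation of ratio and GC content across these 46 genes was 0.29 for oxamate against control, and 0.31 across 10736 genes. For oxamate+lactate against oxamate it was -0.11 and -0.23, and for oxamate+lactate against control 0.29 and 0.24. Genes are not independent replicates, and the part of GC content in the ratios was not tested.

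Around the factors, 2 genes of the stress response on eIF2 were lower in oxamate. Of 8 such genes, 0 were higher past the first threshold and 2 lower, against 23.1% higher and 11.8% lower of all genes. DDIT3, which encodes the stress factor CHOP, had 144 in oxamate+lactate, 136 in oxamate and 226 in control (-0.73 for oxamate against control). ATF4, the transcription factor whose translation depends on phosphorylated eIF2, had 3586, 3570 and 4690 in the same libraries (-0.39). The kinases EIF2AK1, EIF2AK2, EIF2AK3 and EIF2AK4 had ratios from -0.10 to 0.20. The phosphatase subunit genes, given after their values were seen, differed from each other. PPP1R15B had 1251 in oxamate+lactate, 1403 in oxamate and 1143 in control (0.30 for oxamate against control). PPP1R15A had 240 in oxamate+lactate, 185 in oxamate and 207 in control, and was higher past the first threshold in oxamate+lactate than in oxamate (0.37).

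Of 17 genes that act on eIF4F through mTORC1 or the MNK kinases, 16 were over the floor, 5 were higher past the first threshold in oxamate than in control and 2 lower, with a median of 0.23. These shares, 31.2% and 12.5%, stand beside 23.1% and 11.8% of all genes. AKT1S1, which encodes an inhibitory mTORC1 subunit, had 351 in oxamate+lactate, 488 in oxamate and 282 in control (0.79). MTOR itself had 1415 in oxamate+lactate, 1736 in oxamate and 1201 in control (0.53). The other 3 higher genes were TSC1, RPS6KB2 and MKNK2. The lower ones, named here after their values were seen, were SESN2, a leucine sensor upstream of mTORC1, with 634, 456 and 600 in the same libraries (-0.40), and PDCD4, an inhibitor of eIF4A, with 528, 517 and 657 (-0.35).

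Of 12 genes for poly(A)-binding and further initiation or recycling factors, 1 was higher past the first threshold in oxamate than in control, the helicase gene DDX3X (0.35), named after its value was seen, and 0 were lower, or 8.33% and 0, against 23.1% and 11.8% of all genes. Of 11 listed elongation and release factors, 10 were over the floor, 1 was higher and 1 lower, or 10.0% each, against the same 23.1% and 11.8%. DOHH, which completes hypusine on eIF5A, had 395 in oxamate+lactate, 546 in oxamate and 364 in control (0.58). EEF1E1, a member of the tRNA synthetase complex, had 91 in oxamate+lactate, 65 in oxamate and 108 in control (-0.72).

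The remaining rows were pseudogenes and EIF2S3L, a coding EIF2S3-like gene. Of the 11, 3 were over the floor. The symbol EIF4BP names pseudogenes of EIF4B and no 4E-BP. EIF4BP3 had 44 in oxamate+lactate, 56 in oxamate and 78 in control (-0.47 for oxamate against control and -0.81 for oxamate+lactate against control), and EIF4BP6 had 69, 74 and 86 in the same libraries. Of the 50-base stretches of EIF4BP3, 35.3% are also in the EIF4B principal transcript, and for EIF4BP6 it is 51.9%, so reads of EIF4B and of these rows may be exchanged. EIF4B itself did not follow them, at 0.04 for oxamate against control. The 9 rows under the floor were EIF1AXP1, EIF2S2P4, EIF2S3L, EIF3EP1, EIF3FP3, EIF4A1P2, EIF4BP7, EIF4HP1 and EIF5AP4.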

How the data were processed

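A single table holds the values, named normalized counts by the authors, in 1 column per library. All are whole numbers, and the deposited values were treated as a score, rounded by the authors. No count model was fitted and whole reads could not be recovered. The submitters' processing notes name hg19, FastQC 0.11.9, STAR 2.7.1a and HTSeq 0.11.2. No source used here gives the annotation, gene filter or normalization. Per the labels' protocols, equal cell numbers were extracted, an ERCC mix was added, and the NEBNext Ultra kit was used.

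Log2 ratios with a pseudocount of 1 were computed in Python 3.11.15 with pandas 2.3.3 for genes averaging at least 50. Rows past a log2 ratio of 0.32 or past 1.5-fold in either direction were counted, beside the same count over all genes. The computation was tested on simulated data. Overlaps, transcripts (best APPRIS class, then support level, then length) and GC content came from GENCODE release 29 on GRCh38, and starts from the RefSeq table (GRCh38.p14). Neither is the build of the files. Every EIF row is listed. The rule for values in full takes rows past 1.5-fold, the 5 highest and lowest in each comparison, and the eIF4E, 4E-BP, eIF2, eIF2B and eIF4A genes. Pathway genes past 1.5-fold are given, with MTOR, ATF4 and MYC. The members and lists were chosen with earlier results of these data known. From the pathway lists, 2 genes (NAT1 and DAP) were dropped, since their symbols name genes outside initiation. The values of EIF1AY and EIF4A1P2, both Y-linked, are not reported. Other pseudocounts, floors and scalings were tried.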

Additional observations from a re-analysis of the deposited data

How the results depend on the processing

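Each library stands alone, so depth and culture spread set no interval on any ratio, and the alternatives below change the scale, the pseudocount or which rows are counted. No paired analysis was possible because each medium has 1 library. The log2 ratios of single EIF genes kept their direction wherever the reported ratio passed the first threshold (0.32 on the log2 scale), under every alternative listed here. The medians over the EIF rows changed sign under equal totals and with the all-gene median set to 0 (-0.05 and -0.03 for oxamate against control, 0.03 and 0.01 for oxamate+lactate against oxamate), and under equal ERCC sums for oxamate+lactate against control (0.01).

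Counts of rows moved as follows. For oxamate against control, 4 were higher past the first threshold with equal totals, and 0 at least 1.5-fold higher with equal totals or relative to the median. For oxamate+lactate against oxamate, the count higher past the first threshold was 0 with a pseudocount of 10 and 2 under each of the 3 scalings, and the count lower was 6 with a floor of 10, 1 with a floor of 200, 0 with equal totals, 1 with equal ERCC sums and 0 relative to the median. There, 2 rows were at least 1.5-fold lower with a floor of 10. For oxamate+lactate against control, 5 were higher past the first threshold with equal ERCC sums. The count at least 1.5-fold lower there was 10 with a floor of 10 and 3 with a floor of 200. It was 2 without pseudogene rows, EIF3C, EIF3CL and EIF5AL1, an alternative chosen after seeing the data. A lower floor adds rows that are mostly pseudogenes, and the cause of the other shifts was not tested.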

Other observations

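Rows under the floor got no ratio. EIF5AP4, a pseudogene of EIF5A, had 14 normalised counts in oxamate+lactate, 9 in oxamate and 2 in control. EIF2S2P4, a pseudogene of EIF2S2 that shares 59.5% of its 50-base stretches with the principal transcript of that gene, had 32 in oxamate+lactate, 36 in oxamate and 61 in control. EIF2S3L, an EIF2S3-like gene, had 23 in oxamate+lactate, 26 in oxamate and 35 in control. EIF3FP3 had 31 in oxamate+lactate, 41 in oxamate and 58 in control, and EIF3EP1 had 37, 46 and 59 in the same libraries. EIF4BP7 had 19 in oxamate+lactate, 20 in oxamate and 37 in control. EIF1AXP1 had 31 in oxamate+lactate and 26 in each of oxamate and control, and EIF4HP1 had 25 in oxamate+lactate, 39 in oxamate and 30 in control. EIF3J-AS1, an antisense RNA outside the rule, had 97 in oxamate+lactate, 99 in oxamate and 118 in control.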
